A study of Mus musculus with 6 samples.

Results

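The 10 genes Arntl, Nfil3, Nr1d1, Cry2, Per1, Per2, Per3, Dbp, Tef and Hlf of the circadian clock and its PAR bZIP output branch were followed in the aorta of Apoe-/- mice, out of 47643 genes in the count table. They are a fixed list of symbols, chosen with earlier results of these data known. They were matched to Ensembl identifiers through GENCODE M21, and each matched 1 identifier. RNA sequencing was made of the entire aorta in 2 groups. EPO mice received recombinant human erythropoietin, the hormone of red cell production, injected into the peritoneum for 4 weeks at a daily dose of 5000 IU per kg, and Vehicle mice received saline by the same route for 4 weeks. All mice of both groups carried the Apoe-/- genotype, which removes a lipid-carrying plasma protein and raises plasma cholesterol. The sources used here state neither age and sex nor the hour at which the aorta was taken, and the part of the hour in the values below was not tested. Each group had 3 libraries, and since no label ties a library to an animal in so many words, p-values refer to the spread among the 6 libraries, which may be technical.

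The clock of mammalian cells is a transcription loop. BMAL1, the product of Arntl, pairs with CLOCK or NPAS2 and activates genes that carry E-boxes, among them the Per, Cry and Nr1d1 genes and the PAR bZIP genes Dbp, Tef and Hlf. PER and CRY proteins then inhibit BMAL1, while REV-ERB alpha, the product of Nr1d1, represses Arntl and Nfil3 at ROR elements. DBP, TEF and HLF activate genes that carry D-boxes, and NFIL3 represses through the same boxes. In mouse peripheral tissues Arntl and Nfil3 transcripts peak around the end of the night and the start of the day, called morning genes here. The other members peak between about midday and the early night, with a shallow rhythm for Cry2, and are called evening genes here. In the vessel wall the loop runs in smooth muscle, endothelium and perivascular fat, and it is known for its part in the daily rhythm of blood pressure.

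The promoter letters of the members are shown because the 2 phase classes are thought to rest on different boxes. Windows from 250 bases before to 50 bases after the transcription start, from RefSeq on GRCm38.p6, were found for 9 of the members, 12 windows in all; Per2 was not among them. Both strands were searched for the E-box CACGTG, the E'-box CACGTT, the D-boxes TTATGTAA and TTACGTAA and the ROR element TAGGTCA, none of which overlapped another in these windows. The ROR element was present in 1 of 2 windows of Arntl and in the window of Nfil3, both morning genes, and in no window of the evening members, against 2.61% of all 32851 windows in the table. The E-box was present in 1 of 2 windows of Per1 and in both windows of Tef, against 7.15% of all windows, and the E'-box in Nr1d1 and Cry2, against 4.68%. TTATGTAA was present 2 times in Per3, against 0.938% of all windows with it at least once, and TTACGTAA, present in 0.119% of all windows, was in none of the members. The windows of Dbp and Hlf held none of these letters. Outside the members, the windows of Clock and Npas2, listed as morning genes, held none either. That of Cry1, also listed as a morning gene, held an E-box and an E'-box but no ROR element. Among evening genes outside the members, Ciart and Bhlhe41 held the E-box and Nr1d2 none of these letters. A match is a description of the letters and not a site shown to be bound. The 5 windows below are given from 5′ to 3′ with the matches in capitals.
Arntl (chr7:113207261-113207560, plus strand): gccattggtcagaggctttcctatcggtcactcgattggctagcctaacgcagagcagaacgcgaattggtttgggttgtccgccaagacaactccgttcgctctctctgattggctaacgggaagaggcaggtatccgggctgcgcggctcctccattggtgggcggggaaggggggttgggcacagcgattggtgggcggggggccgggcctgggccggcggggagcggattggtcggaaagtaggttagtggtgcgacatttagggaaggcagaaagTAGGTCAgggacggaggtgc
Nfil3 (chr13:52980990-52981289, minus strand): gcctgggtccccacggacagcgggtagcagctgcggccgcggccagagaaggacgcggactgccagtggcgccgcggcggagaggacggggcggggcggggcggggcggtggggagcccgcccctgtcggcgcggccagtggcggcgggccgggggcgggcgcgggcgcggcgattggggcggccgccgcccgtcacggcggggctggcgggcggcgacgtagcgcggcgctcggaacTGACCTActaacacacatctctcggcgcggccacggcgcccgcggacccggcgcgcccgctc
Nr1d1 (chr11:98775328-98775627, minus strand): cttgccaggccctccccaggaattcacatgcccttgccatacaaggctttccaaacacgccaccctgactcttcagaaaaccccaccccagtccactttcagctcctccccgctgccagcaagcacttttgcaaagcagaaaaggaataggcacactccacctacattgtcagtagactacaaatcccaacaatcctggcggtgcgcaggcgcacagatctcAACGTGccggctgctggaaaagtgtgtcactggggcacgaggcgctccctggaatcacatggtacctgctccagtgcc
Per1 (chr11:69098699-69098998, plus strand): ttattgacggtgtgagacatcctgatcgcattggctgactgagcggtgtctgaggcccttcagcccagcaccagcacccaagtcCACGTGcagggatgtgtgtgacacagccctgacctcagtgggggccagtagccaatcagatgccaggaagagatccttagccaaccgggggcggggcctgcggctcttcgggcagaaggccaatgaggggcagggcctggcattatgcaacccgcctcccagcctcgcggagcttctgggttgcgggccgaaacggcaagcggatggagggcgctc
Per3 (chr4:151044616-151044915, minus strand): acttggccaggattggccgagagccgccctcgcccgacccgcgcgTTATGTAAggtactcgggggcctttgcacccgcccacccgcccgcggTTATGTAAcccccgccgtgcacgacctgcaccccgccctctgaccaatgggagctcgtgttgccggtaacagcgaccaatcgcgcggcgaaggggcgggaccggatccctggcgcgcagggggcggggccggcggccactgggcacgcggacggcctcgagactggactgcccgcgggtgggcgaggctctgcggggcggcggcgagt

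Library totals lay between 28798632 and 38502430 counts in EPO and between 23278649 and 27904322 counts in Vehicle, and the 10 members had between 52 counts (Arntl in Vehicle 2) and 8661 counts (Tef in Vehicle 2), so all 10 passed the filter on low counts. Apoe, the gene targeted in both groups, was at 38.6, 11.4 and 13.9 CPM in the EPO libraries, against 7.65, 20.1 and 17.0 CPM in the Vehicle libraries, and with no wild-type aorta these values do not test the knockout. Across all 16522 genes tested, 3804 (23%) passed edgeR's quasi-likelihood test (Benjamini-Hochberg adjusted p under 0.05), and the median log2 fold change was 0.01. That number was 1635 without Vehicle 1 and 2029 without Vehicle 2. EPO 1 stood apart from EPO 2 and EPO 3 in the members themselves: 5 of the 10 lay within the Vehicle range in EPO 1, against 0 of 10 in EPO 2 and 0 of 10 in EPO 3. The members' calls below that changed without EPO 1 are therefore given without it as well. EPO 1 was picked out by these same members' values, so its removal favours their calls, which are a description and no support. Without EPO 2 instead, the log2 fold change was -0.31 for Dbp, -0.41 for Per3, -0.70 for Tef and -0.55 for Per1. None of these passed (edgeR adjusted p between 0.175 and 0.806). CPM stands for counts scaled to a common library total after TMM, given as mean ± SD over 3 libraries.

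The evening members averaged lower with EPO and the morning members higher, but the size differed widely between libraries and only part of the members passed the test. Of the 10 members 5 (50%) were called, against the background of 23% of all tested genes. As the members were chosen with results of these data known, this share and those below are a description and carry no test. Of 20 other core clock genes tested, 1 was called higher and 1 lower. Hlf, Nr1d1, Per2 and Cry2 fell, Nfil3 rose, and Arntl, Dbp, Tef, Per1 and Per3 were not called. By direction, 4 of 8 evening members were called lower, where 10.1% of all genes were, and 1 of 2 morning members was called higher, where 12.9% of all genes were. All 8 evening members had a negative log2 fold change (median -0.96) and both morning members a positive one (median 1.25). Groups did not overlap for 4 members (40%), a share near the 43.8% of all tested genes and so no result about the members. Without EPO 1 the number of members called was 9, with 8 lower and 1 higher, Arntl being the exception, against 25.2% of all tested genes called in that fit. Without EPO 2, EPO 3, Vehicle 2 or Vehicle 3 it was 3 each time, namely Nr1d1, Cry2 and Hlf, against 15.2% of all genes without EPO 2, 17.3% without EPO 3, 11.9% without Vehicle 2 and 15.4% without Vehicle 3. Without Vehicle 1 it was 4, these and Per2, against 9.58% of all genes.

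**Figure D1:**
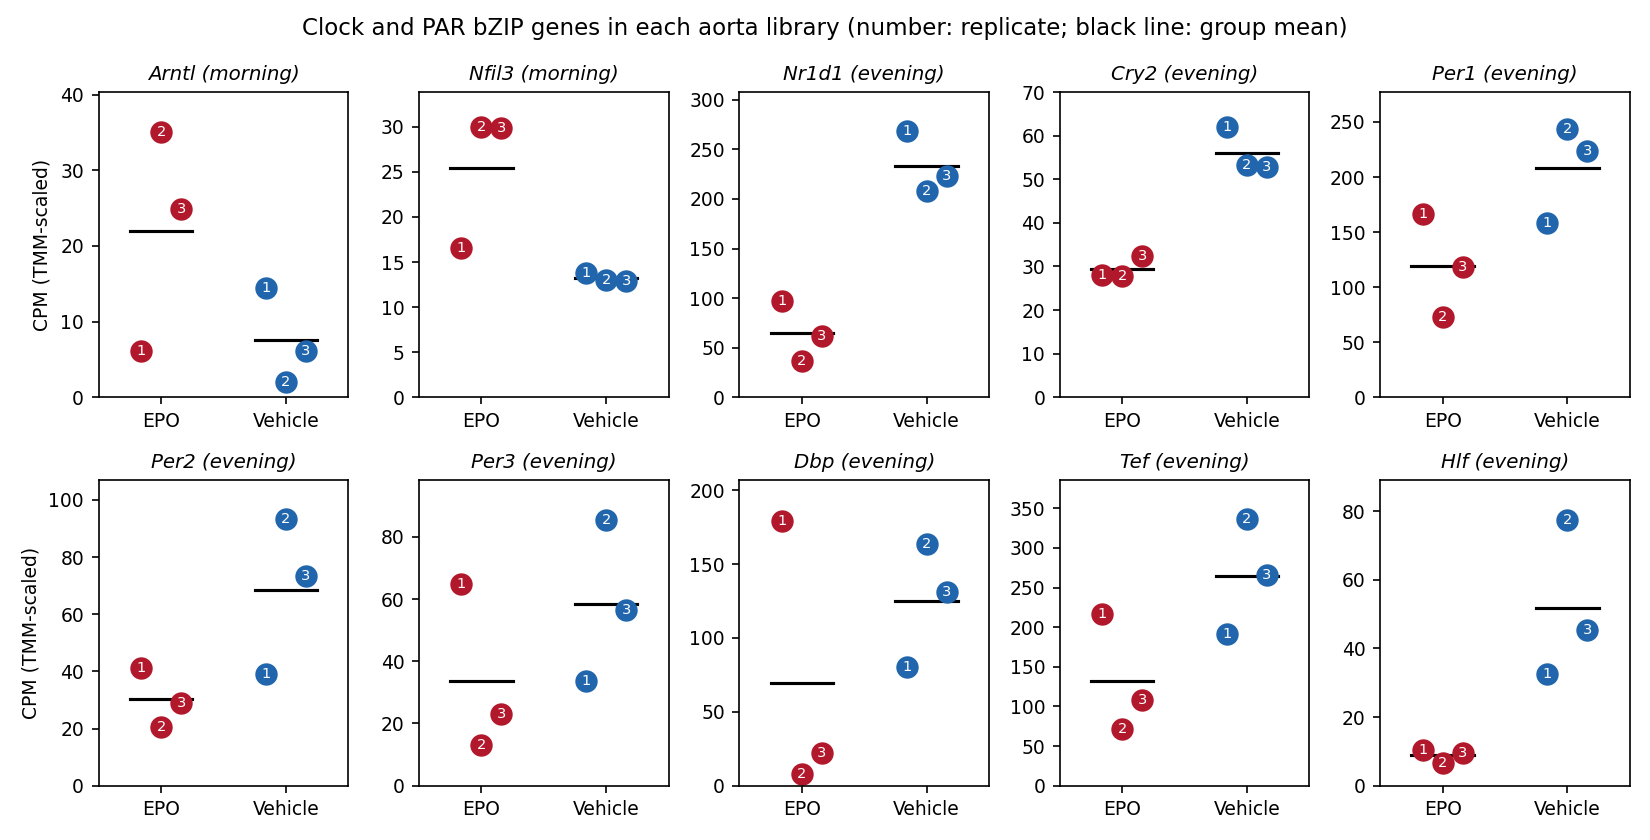
CPM of each member (y axes, from 0, with a scale of its own per panel) in the EPO and Vehicle libraries. Each point is a library with its replicate number and each black line a group mean; EPO 1 lies within or above the Vehicle range for Dbp, Tef, Per1, Per2 and Per3, and the groups do not overlap for Nfil3, Nr1d1, Cry2 and Hlf.

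Arntl encodes the activator of the loop (ENSMUSG00000055116, GRCm38 chromosome 7, 113207465 to 113314126, plus strand). It had 6.16, 35.0 and 24.8 CPM in EPO 1, 2 and 3, against 14.4, 2.02 and 6.11 CPM in Vehicle 1, 2 and 3. EPO 2 and EPO 3 were above all Vehicle libraries, while EPO 1 lay between Vehicle 3 and Vehicle 1, so the groups overlapped. The means were 22.0 ± 14.6 CPM in EPO, against 7.52 ± 6.32 CPM in Vehicle (SD, n = 3 each), and the difference did not pass (log2 fold change 1.55 with SE 0.77, adjusted p = 0.187 in edgeR; 95% interval -0.25 to 3.35). It was not called in any of 15 alternative settings either, with edgeR, DESeq2 and limma-voom adjusted p between 0.0745 and 0.412, and the log2 fold change was 2.0 without EPO 1. Within each group Arntl was among the members that varied most: the highest library was 5.68 times the lowest in EPO and 7.14 times in Vehicle.

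Nfil3 encodes the repressor that binds the same boxes as the PAR bZIP activators (ENSMUSG00000056749, GRCm38 chromosome 13, 52967209 to 52981073, minus strand). It had 16.6, 29.9 and 29.9 CPM in EPO 1, 2 and 3, against 13.8, 13.0 and 12.9 CPM in Vehicle 1, 2 and 3. Every EPO library was above every Vehicle library, with EPO 1 nearest to them, and the Vehicle libraries lay close together. Nfil3 rose to 25.5 ± 7.70 CPM in EPO, against 13.2 ± 0.517 CPM in Vehicle (SD, n = 3 each; log2 fold change 0.94 with SE 0.23, adjusted p = 0.0261 in edgeR). The call held without EPO 1 but not without any other library: the edgeR adjusted p was between 0.0706 and 0.0914 without EPO 2, EPO 3, Vehicle 1, Vehicle 2 or Vehicle 3, with a log2 fold change of 0.81 to 0.95. It was 0.0511 in limma-voom.

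Nr1d1 encodes REV-ERB alpha, the haem-binding nuclear receptor that represses Arntl and Nfil3 (ENSMUSG00000020889, GRCm38 chromosome 11, 98767932 to 98775333, minus strand). It had 96.7, 36.3 and 61.7 CPM in EPO 1, 2 and 3, against 268, 208 and 223 CPM in Vehicle 1, 2 and 3. All EPO libraries were lower than all Vehicle libraries, EPO 1 included. Nr1d1 fell to 64.9 ± 30.3 CPM in EPO, against 233 ± 31.2 CPM in Vehicle (SD, n = 3 each; log2 fold change -1.85 with SE 0.33, adjusted p = 0.00891 in edgeR), and it kept its call in all 15 alternative settings, with log2 fold changes of -2.26 to -1.56. Nr1d1 shares 263 exonic bases, 8.55% of its exonic length, with Thra on the opposite strand, so its counts are uncertain where the counting did not use strand. Thra, a thyroid hormone receptor gene, was at 91.5, 113 and 122 CPM in the EPO libraries, against 263, 152 and 179 CPM in the Vehicle libraries (log2 fold change -0.86 with SE 0.22, adjusted p = 0.0302 in edgeR). Thra lost its call without any single library except Vehicle 2 (edgeR adjusted p between 0.0518 and 0.0821).

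Cry2, a cryptochrome that inhibits BMAL1 (ENSMUSG00000068742, GRCm38 chromosome 2, 92403646 to 92434043, minus strand), was the least variable member. It had 28.1, 27.9 and 32.5 CPM in EPO 1, 2 and 3, against 62.0, 53.3 and 52.8 CPM in Vehicle 1, 2 and 3. The EPO libraries differed from each other by 1.16 times and the Vehicle libraries by 1.17 times, and the groups lay clear of each other. Cry2 fell to 29.5 ± 2.6 CPM in EPO, against 56.0 ± 5.18 CPM in Vehicle (SD, n = 3 each; log2 fold change -0.92 with SE 0.13, adjusted p = 0.00370 in edgeR) and kept its call in all 15 alternative settings. An antisense transcript, D930015M05Rik, shares 295 exonic bases with it but had at most 20 counts in a library.

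The 3 Per genes encode the period proteins that join the cryptochromes in inhibiting BMAL1, and Per1 and Per2 are also known as genes switched on quickly by glucocorticoid and cAMP signals. Per1 (ENSMUSG00000020893, GRCm38 chromosome 11, 69095217 to 69109960, plus strand) had 166, 72.8 and 118 CPM in EPO 1, 2 and 3, against 158, 244 and 224 CPM in Vehicle 1, 2 and 3. EPO 1 lay within the Vehicle range, just above Vehicle 1, and EPO 2 and EPO 3 lay below it. Per1 was not called (log2 fold change -0.81 with SE 0.30, adjusted p = 0.0955 in edgeR; 95% interval -1.52 to -0.10), but it was without EPO 1 (log2 fold change -1.14, edgeR adjusted p = 0.0314) and in DESeq2 (adjusted p = 0.0402).

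Per2 (ENSMUSG00000055866, GRCm38 chromosome 1, 91415982 to 91459324, minus strand) had 41.2, 20.6 and 28.9 CPM in EPO 1, 2 and 3, against 39.2, 93.5 and 73.4 CPM in Vehicle 1, 2 and 3. Here too EPO 1 lay just above Vehicle 1, and EPO 2 and EPO 3 were below all Vehicle libraries. Per2 fell to 30.2 ± 10.4 CPM in EPO, against 68.7 ± 27.5 CPM in Vehicle (SD, n = 3 each; log2 fold change -1.18 with SE 0.35, adjusted p = 0.0491 in edgeR), close to the threshold. Without EPO 1 the log2 fold change was -1.48 (edgeR adjusted p = 0.0371). The edgeR adjusted p was 0.123 without EPO 2, 0.113 without EPO 3, 0.147 without Vehicle 2 and 0.110 without Vehicle 3. It was 0.0506 with DESeq2 size factors and 0.0625 in limma-voom.

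Per3 (ENSMUSG00000028957, GRCm38 chromosome 4, 151003652 to 151044665, minus strand) had 64.8, 12.9 and 23 CPM in EPO 1, 2 and 3, against 33.5, 85.6 and 56.6 CPM in Vehicle 1, 2 and 3. EPO 1 was above Vehicle 1 and Vehicle 3, while EPO 2 and EPO 3 were below all Vehicle libraries. Per3 was not called (log2 fold change -0.80 with SE 0.58, adjusted p = 0.358 in edgeR; 95% interval -2.16 to 0.56). Without EPO 1 its log2 fold change was -1.71 (edgeR adjusted p = 0.0381).

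The PAR bZIP genes encode proline- and acid-rich leucine zipper factors that carry the rhythm to D-box genes. Dbp (ENSMUSG00000059824, GRCm38 chromosome 7, 45705088 to 45710203, plus strand) had 179, 7.77 and 21.9 CPM in EPO 1, 2 and 3, against 80.1, 163 and 131 CPM in Vehicle 1, 2 and 3. It was highest of all in EPO 1 and lowest of all in EPO 2, a difference of 23.1 times within EPO, while the Vehicle libraries differed by 2.04 times. Dbp was not called (log2 fold change -0.84 with SE 0.97, adjusted p = 0.570 in edgeR; 95% interval -3.10 to 1.42), and without EPO 1 its log2 fold change was -3.08 (edgeR adjusted p = 0.0114). Of its exonic length 18.0% (539 bases) is shared with Sphk2 on the opposite strand, a sphingosine kinase gene at 58.5, 41.9 and 45.5 CPM in the EPO libraries, against 51.3, 32.5 and 48.6 CPM in the Vehicle libraries, so its counts are uncertain where the counting did not use strand.

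Tef (ENSMUSG00000022389, GRCm38 chromosome 15, 81802421 to 81826863, plus strand) had 217, 71.6 and 108 CPM in EPO 1, 2 and 3, against 191, 337 and 265 CPM in Vehicle 1, 2 and 3. EPO 1 again lay within the Vehicle range, and EPO 2 and EPO 3 were below it. Tef was not called (log2 fold change -1.0 with SE 0.40, adjusted p = 0.114 in edgeR; 95% interval -1.94 to -0.06), but it was without EPO 1 (log2 fold change -1.57, edgeR adjusted p = 0.0149) and in DESeq2 (adjusted p = 0.0381). The antisense model Gm17597, which shares 193 bases with it, had at most 5 counts in a library.

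Hlf (ENSMUSG00000003949, GRCm38 chromosome 11, 90336536 to 90390895, minus strand) differed from Dbp and Tef in that EPO 1 was low as well. It had 10.3, 6.65 and 9.56 CPM in EPO 1, 2 and 3, against 32.6, 77.3 and 45.2 CPM in Vehicle 1, 2 and 3. Every EPO library was below every Vehicle library, with a wide spread in Vehicle and a narrow one in EPO. Hlf fell to 8.83 ± 1.91 CPM in EPO, against 51.7 ± 23 CPM in Vehicle (SD, n = 3 each; log2 fold change -2.55 with SE 0.34, adjusted p = 0.00340 in edgeR), the lowest log2 fold change of the 10 members, and it kept its call with each single library left out. Without both EPO 1 and EPO 2 the adjusted p was 0.0596 in edgeR.

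**Figure D2:**
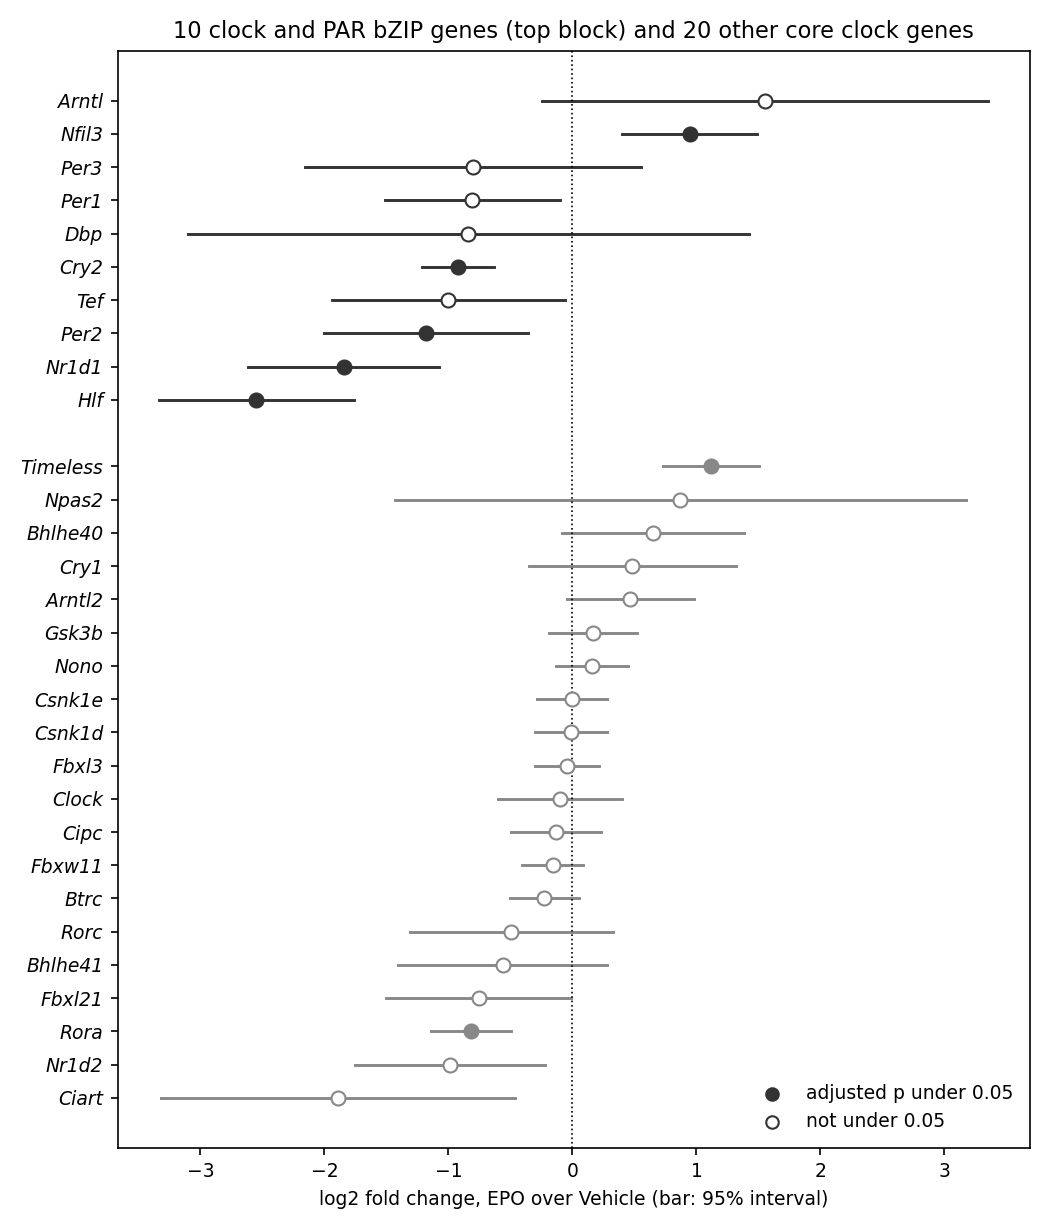
Log2 fold change of EPO over Vehicle (x axis) with its 95% interval for the 10 members and for 20 other core clock genes. Filled points passed an adjusted p under 0.05 in edgeR; among the members these are Nfil3, Cry2, Per2, Nr1d1 and Hlf, and among the others Timeless and Rora.

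**Figure D3:**
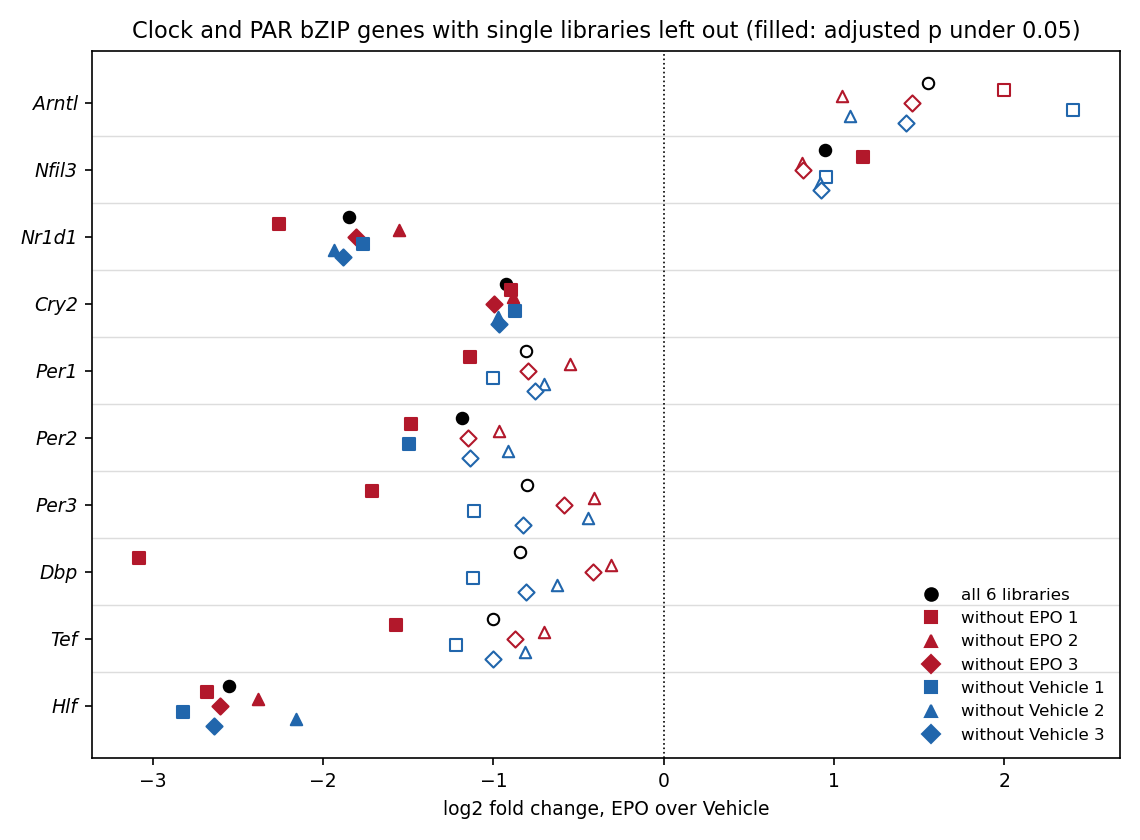
Log2 fold change of each member (x axis) with all 6 libraries and with each library left out in turn; filled marks passed an adjusted p under 0.05. No mark crosses 0, Nr1d1, Cry2 and Hlf are filled throughout, and Dbp, Tef, Per1 and Per3 are filled without EPO 1 alone.

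Levels of different genes were compared per kilobase of exon (RPKM, from the same scaled counts). Nr1d1 averaged 21.1 ± 9.86 in EPO and 75.8 ± 10.1 in Vehicle, Dbp 23.3 ± 31.8 in EPO and 41.7 ± 14.0 in Vehicle, Per1 21.2 ± 8.31 in EPO and 37.0 ± 7.91 in Vehicle and Tef 16.8 ± 9.60 in EPO and 33.6 ± 9.25 in Vehicle (RPKM, SD, n = 3 each). In Vehicle Nr1d1 was therefore the highest member in each library, with Dbp, Per1 and Tef within their spread of each other. In EPO these 4 genes lay within their spread of each other. Nfil3 averaged 12.6 ± 3.80 in EPO and 6.53 ± 0.255 in Vehicle RPKM, Per2 5.16 ± 1.78 in EPO and 11.7 ± 4.69 in Vehicle, Cry2 4.67 ± 0.412 in EPO and 8.86 ± 0.819 in Vehicle, Hlf 1.32 ± 0.286 in EPO and 7.74 ± 3.45 in Vehicle and Per3 3.50 ± 2.86 in EPO and 6.09 ± 2.71 in Vehicle. Arntl, at 2.93 ± 1.95 in EPO and 0.999 ± 0.840 in Vehicle RPKM, was the lowest member in each Vehicle library and in EPO 1, and Hlf was lowest in EPO 2 and EPO 3.

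Within each group most evening members had the same library order, while Cry2 had another order in both groups. The share of all tested genes with these orders was not counted. Dbp, Tef, Hlf, Per1, Per2, Per3 and Nr1d1, 7 of 8 evening members, ran from high to low in the order EPO 1, EPO 3 and EPO 2. In Vehicle 6 of 8 evening members, these except Nr1d1, ran in the order Vehicle 2, Vehicle 3 and Vehicle 1. Arntl ran the opposite way in all 6 pairs of libraries of the same group for Dbp, Tef, Hlf, Per1, Per2 and Per3. For Nr1d1 and Cry2 it did so in 3 of 6 pairs; in Vehicle, Nr1d1 had its highest value in Vehicle 1, where Arntl was highest too. Nfil3 followed Arntl in 5 of 6 pairs.

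**Figure D4:**
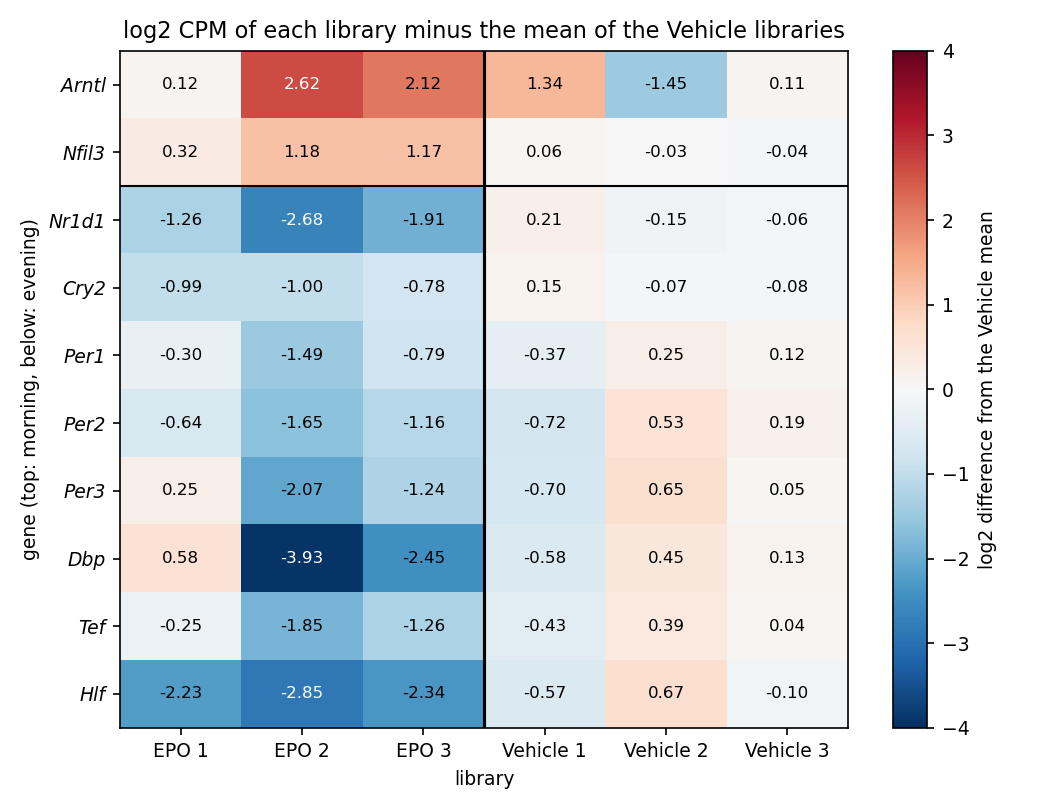
Log2 CPM of each member (rows) in each library (columns) minus the mean of the 3 Vehicle libraries; red is above and blue below that mean. EPO 2 and EPO 3 are red for Arntl and Nfil3 and blue for all evening members, while EPO 1 is near 0 for Arntl, Per1 and Tef and blue for Nr1d1, Cry2 and Hlf.

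Ratios of members within a library do not depend on the scaling between libraries. Dbp had 29.1, 0.222 and 0.883 counts for each Arntl count in EPO 1, 2 and 3, against 5.55, 80.8 and 21.5 in Vehicle 1, 2 and 3. EPO 2 and EPO 3 were thus the only libraries with fewer Dbp than Arntl counts. Nr1d1 had 15.7, 1.03 and 2.48 counts for each Arntl count in EPO 1, 2 and 3, against 18.6, 103 and 36.5 in Vehicle 1, 2 and 3, and here all EPO libraries were below all Vehicle libraries. The mean log2 CPM of the 2 morning members minus that of the 8 evening members was -2.75, 0.50 and -0.45 in EPO 1, 2 and 3, against -2.50, -4.66 and -3.58 in Vehicle 1, 2 and 3. It averaged -0.90 ± 1.67 in EPO and -3.58 ± 1.08 in Vehicle (SD, n = 3 each), a difference of 2.68, and EPO 1 lay inside the Vehicle range. As the members were chosen with results of these data known, this difference is a description and carries no test.

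**Figure D5:**
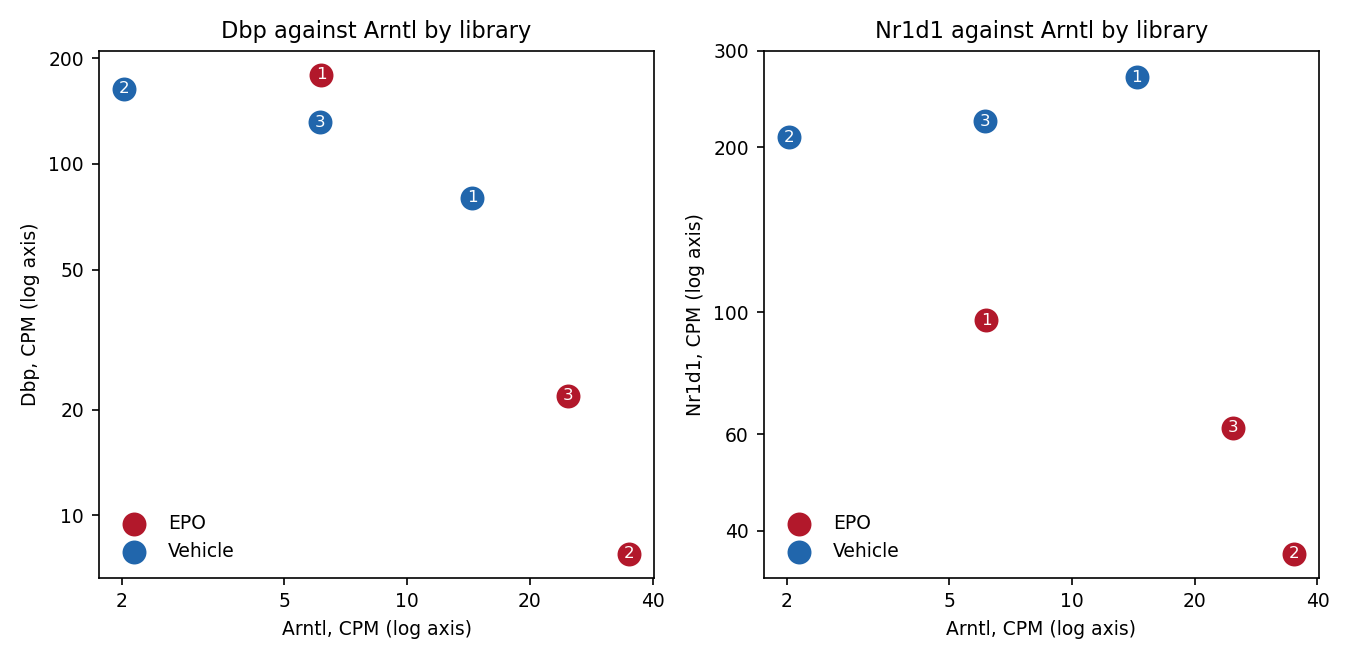
Dbp (left) and Nr1d1 (right) against Arntl, CPM on log axes, 1 point per library with its replicate number. For Dbp the EPO 1 point lies at nearly the Arntl level of Vehicle 3 and above all Vehicle points. For Nr1d1 all EPO points lie below the Vehicle points, EPO 1 at 96.7 CPM.

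The spread within groups was larger for most members than for most genes. The within-group SD of log2 CPM was 1.67 for Dbp, 1.36 for Arntl and 0.96 for Per3, which 99.5%, 98.8% and 96.8% of all tested genes stayed below. It was 0.64 for Tef, 0.58 for Per2, 0.52 for Nr1d1, 0.50 for Hlf, 0.48 for Per1 and 0.35 for Nfil3, against a median of 0.26 over all tested genes. Cry2 had an SD of 0.13, and 16.2% of all tested genes had a smaller one. The members with an SD over 0.6 (Dbp, Arntl, Per3 and Tef) were not called with all 6 libraries, and the member with the smallest SD, Cry2, was called at a log2 fold change of -0.92, against -1.0 for Tef.

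Among 21 other core clock genes, 20 were tested, of which 1 was higher and 1 lower (median log2 fold change -0.07). In the background 12.9% of genes were higher and 10.1% lower, so these counts are no result about the list. Rora, the nuclear receptor that activates at the ROR elements where REV-ERB represses, fell to 31.7 ± 3.91 CPM in EPO, against 55.8 ± 5.47 CPM in Vehicle (SD, n = 3 each; log2 fold change -0.82 with SE 0.14, adjusted p = 0.00733 in edgeR), with all EPO libraries below all Vehicle libraries. Timeless, which acts in DNA replication and whose role in the mammalian clock is debated, rose to 16.7 ± 1.90 CPM in EPO, against 7.69 ± 0.885 CPM in Vehicle (SD, n = 3 each; log2 fold change 1.12 with SE 0.17, adjusted p = 0.00482 in edgeR). All 6 of the cell cycle genes listed beside it were called higher as well, and the part of dividing cells in the Timeless value was not tested. Rorb, with at most 7 counts in a library, was too low to be tested. The count of called genes in this list was 5 (4 lower) without EPO 1, against 25.2% of all tested genes called in that fit. In DESeq2 it was 4 (3 lower), against 26.7% of all tested genes. These counts are no result about the list either.

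Of 3 other genes listed as morning genes, Npas2 and Clock had the library order of Arntl within each group and Cry1 did not. Npas2, the partner of BMAL1 in place of CLOCK and a morning gene, had 1.92, 27.5 and 17.0 CPM in EPO 1, 2 and 3, against 18.7, 2.06 and 4.73 CPM in Vehicle 1, 2 and 3, in the same library order as Arntl within each group (log2 fold change 0.87 with SE 0.99, adjusted p = 0.562 in edgeR). Clock had 36.7, 55.2 and 43.8 CPM in EPO 1, 2 and 3, against 62.0, 39.3 and 44.0 CPM in Vehicle 1, 2 and 3, also in the order of Arntl (log2 fold change -0.10 with SE 0.22, adjusted p = 0.776 in edgeR). Its log2 fold change was 0.02 without EPO 1 and 0.090 without Vehicle 1, so it has no settled direction. Cry1 is a cryptochrome that peaks late among the Per and Cry genes, and whether it belongs in the morning list was not tested. Cry1 had 13.2, 14.0 and 13.0 CPM in EPO 1, 2 and 3, against 5.13, 15.4 and 8.18 CPM in Vehicle 1, 2 and 3 (log2 fold change 0.48 with SE 0.36, adjusted p = 0.367 in edgeR). It followed neither Arntl nor Dbp through the libraries.

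Among evening genes outside the members, Ciart, a repressor of BMAL1, had 9.98, 2.10 and 3.28 CPM in EPO 1, 2 and 3, against 10.2, 29.4 and 17.6 CPM in Vehicle 1, 2 and 3. All EPO libraries were below all Vehicle libraries, EPO 1 by a small margin, and the adjusted p missed the threshold (log2 fold change -1.89 with SE 0.61, adjusted p = 0.0623 in edgeR), while it was 0.0129 in edgeR without EPO 1 and 0.0035 in DESeq2. Its promoter window held the E-box 3 times, and 0.088% of all windows held it at least 3 times. Nr1d2, which encodes REV-ERB beta, had 95.4, 42.0 and 51.6 CPM in EPO 1, 2 and 3, against 93.7, 159.7 and 121 CPM in Vehicle 1, 2 and 3 (log2 fold change -0.99 with SE 0.33, adjusted p = 0.0681 in edgeR; 0.0115 without EPO 1). Bhlhe41, a repressor at E-boxes, had 59.3, 23.4 and 30.4 CPM in EPO 1, 2 and 3, against 39.5, 72.2 and 55.6 CPM in Vehicle 1, 2 and 3 (log2 fold change -0.56 with SE 0.36, adjusted p = 0.30 in edgeR; 0.0364 without EPO 1). Ciart, Nr1d2 and Bhlhe41 had the library order of Dbp in all 6 pairs within groups. Bhlhe40, the paralogue of Bhlhe41 and also a repressor at E-boxes, was named after its values were seen and lay on the other side, with 220.5, 97.8 and 97.5 CPM in EPO 1, 2 and 3, against 87.2, 93.2 and 84.5 CPM in Vehicle 1, 2 and 3. All EPO libraries were above all Vehicle libraries, EPO 2 and EPO 3 by a small margin, and it was not called (log2 fold change 0.65 with SE 0.32, adjusted p = 0.178 in edgeR). Its log2 fold change was 0.13 without EPO 1.

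Of 8 clock output genes, 1 was called lower and none higher in edgeR, also at an unadjusted p under 0.05, in DESeq2 and in limma-voom, where 3, 2 and 0 were lower. A count of 1 in 8 is near the 10.1% of all tested genes called lower and so no result about the list. Alas1, the first enzyme of haem synthesis, fell to 68.9 ± 11.6 CPM in EPO, against 113 ± 29.2 CPM in Vehicle (SD, n = 3 each; log2 fold change -0.71 with SE 0.21, adjusted p = 0.0463 in edgeR). The call was lost without EPO 2, EPO 3, Vehicle 1, Vehicle 2 or Vehicle 3 (edgeR adjusted p between 0.0562 and 0.124). Nampt, the enzyme that salvages NAD and a BMAL1 target, had 90.1, 91.9 and 92.9 CPM in the EPO libraries, against 111, 171 and 125 CPM in the Vehicle libraries and missed the threshold (log2 fold change -0.57 with SE 0.17, adjusted p = 0.0519 in edgeR). It passed in DESeq2 (adjusted p = 0.0232). Usp2, Wee1, Tsc22d3, Tspan4 and Por were not called, with log2 fold changes of -0.63, -0.38, -0.24, 0.57 and -0.57; Por passed without EPO 1 (edgeR adjusted p = 0.0264).

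The genes with patterns most like those of Arntl and Dbp were taken by Pearson's r of log2 CPM over the 6 libraries, as a description over libraries of 2 groups. For Arntl the highest were C2cd5 (r = 0.991), Mgat3 (0.982), Gdpd3 (0.980), Dnah2 (0.979) and Ssh1 (0.979), and the lowest Bhlhe41 (-0.974), Cgrrf1 (-0.974), Atp6v1d (-0.971), Coq4 (-0.966) and Per3 (-0.962). For Dbp the highest were Herpud1 (0.991), Tle1 (0.990), Tmem158 (0.987), Rfng (0.987) and Ulk4 (0.983), and the lowest Zim1 (-0.998), Calu (-0.993), Smco4 (-0.993), Hltf (-0.992) and Vcp (-0.991). An r of at least 0.95 in size was reached by 39 genes (0.236% of those tested) for Arntl and by 131 genes (0.793%) for Dbp. Of the 20 places, 2 went to clock genes, Bhlhe41 and the member Per3.

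Part of the markers of the cells in the sample moved with the groups. Of all tested genes 12.9% were called higher and 10.1% lower in edgeR, the background for the counts below. Summed over 9 smooth muscle genes, the level was 7297, 7736 and 9456 CPM in EPO 1, 2 and 3, against 28829, 20246 and 24077 CPM in Vehicle 1, 2 and 3, and 9 of 9 were called lower. Summed over 10 white adipocyte genes it was 2736, 2149 and 2253 CPM in EPO 1, 2 and 3, against 5157, 7942 and 3607 CPM in Vehicle 1, 2 and 3, with 6 called lower. It was lowest in the EPO libraries, and within Vehicle it was highest in Vehicle 2, the library with the highest values of 6 evening members. Within Vehicle it was lowest in Vehicle 3, whereas those 6 members were lowest in Vehicle 1. Over 7 brown adipocyte genes, of which 2 were called lower, it was 905, 721 and 420.1 CPM in EPO 1, 2 and 3, against 1586, 2123 and 658 CPM in Vehicle 1, 2 and 3. Over 8 macrophage genes it was 8182, 4128 and 3748 CPM in EPO 1, 2 and 3, against 1702, 3205 and 3495 CPM in Vehicle 1, 2 and 3. EPO 1, the library that stood apart in the clock genes, was highest. Of these 8 genes 1 was called higher in edgeR and in limma-voom, 5 in DESeq2 and 7 at an unadjusted p under 0.05. The edgeR count was near the 12.9% of all tested genes called higher.

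Skeletal muscle genes summed to 1138, 2856 and 324 CPM in EPO 1, 2 and 3, against 15.6, 7.0 and 13.9 CPM in Vehicle 1, 2 and 3, and all 11 tested were called higher. EPO 2, with the highest Arntl and the lowest Dbp, was the highest. EPO 3, with the next highest Arntl and the next lowest Dbp, had the lowest sum of the EPO libraries. With the skeletal muscle and adipocyte genes removed before scaling, the same 5 members were called. That fit kept 16494 of 16522 tested genes. It bears on the scaling alone and cannot show whether muscle or fat contributed clock transcripts. Of 7 fibroblast genes 3 were called higher and of 6 endothelial genes 2 higher and 1 lower. The background was 12.9% of all tested genes higher and 10.1% lower. Of 4 Schwann cell genes 0 were called in edgeR (2 lower at an unadjusted p under 0.05, 2 lower in DESeq2 and 0 in limma-voom). No listed marker was at 0 in all libraries. In a whole aorta, fewer cells of a type and less RNA per cell cannot be told apart, and the part of these cell types in the clock gene values was not tested.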

How the data were processed

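The authors deposited counts per Ensembl gene in 1 table of 6 columns, with no normalization; all values are whole and column totals differ. The submitters' processing notes name CASAVA 1.8, TopHat2 2.0.6 and the build mm10. Neither the counting tool nor its strand setting is given in the sources used here. Library totals of 23278649 to 38502430 counts left every member with at least 52 counts in each library. The columns named Con were read as Vehicle.

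Symbols, positions and exonic lengths came from GENCODE M21 (GRCm38, the assembly of mm10), which matched 47224 of 47643 identifiers. In R 4.3.3 with edgeR 4.0.16, genes were filtered with filterByExpr (16522 kept), scaled by TMM and fitted by group alone in a two-sided quasi-likelihood test, adjusted by the Benjamini-Hochberg method over all tested genes and called at an adjusted p under 0.05. Log2 CPM for spreads, deviations and correlations used a prior count of 2. An SE is the log2 fold change over the root of F, and 95% intervals use the fit's degrees of freedom. The edgeR procedure was also run on simulated counts in which all genes shared a single dispersion. That run does not cover genes as variable as Dbp, Arntl and Per3.

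The members, the lists (core clock, clock output, glucocorticoid, immediate early, and markers of smooth muscle, white and brown adipocytes, skeletal muscle, fibroblasts, macrophages, endothelium, Schwann cells and cell cycle) and the alternatives were chosen with earlier results of these data known. The text names every member and the called genes and phase genes of the clock lists. It also names up to 2 genes of smallest p per other list, and the 5 highest and 5 lowest correlates of Arntl and Dbp. Clock output genes that were not called, genes overlapping a member, Bhlhe40 and Apoe were added. Junb, Dusp1, Fkbp5, Mt1, Mt2, Sgk1 and Cdkn1a were added after their values were seen. The values of 1 clock output gene are not reported here. Alternatives were other scalings and filters, DESeq2 1.42.0, limma-voom (limma 3.58.1), the replicate number as a block, libraries left out and marker genes removed.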

Additional observations from a re-analysis of the deposited data

How the results depend on the processing

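Over 15 alternatives, the 150 log2 fold changes of the members never changed sign; 127 stayed on their side of the threshold, 16 lost the call and 7 gained it. The number of members called was 5 with all libraries. It was 3 in limma-voom and 3 with the replicate block, where Nfil3 and Per2 lost their calls. Leaving out 1 library gave 3 to 9, and the fit without both EPO 1 and EPO 2, in which the lone EPO library is assumed to vary like Vehicle, gave 4. Of the other core clock genes, 2 were called with all libraries and 2 to 5 without 1 library. It was 4 with library size alone, 4 with no filter and 4 in DESeq2. The shares of all tested genes called in these 3 settings were 22.4%, 14.1% and 26.7%. The number of all genes called was 3804, with 1635 to 4281 when 1 library was left out and 1548 without both EPO 1 and EPO 2. The cause of these changes was not tested. The difference between morning and evening members was 2.68, ranged from 1.98 to 3.61 without 1 library and was 3.14 without both EPO 1 and EPO 2; DESeq2, limma-voom and the block give no value of their own for it. Clock, at -0.10, changed direction to 0.02 without EPO 1 and 0.090 without Vehicle 1, its lowest value being -0.26 without EPO 2. The labels do not say what a replicate number shares. Deviations from the group means correlated at -0.01, -0.01 and 0.13 for numbers 1, 2 and 3. EPO 1 and EPO 2 did not correlate best with their own number, and EPO 3 did. With 3 libraries a group these values cannot decide whether libraries of the same number are paired. With the replicate block 2884 of all genes were called. With 3 libraries a group, the 95% intervals of Dbp, Arntl and Per3 included 0.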

Other observations

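Genes that answer to glucocorticoids, several of which also follow the daily rhythm, were lower in part. Of 11 listed, 3 were called lower, against 10.1% of all tested genes, and 0 higher in edgeR (1 higher at an unadjusted p under 0.05, 0 in DESeq2 and 0 in limma-voom). The median log2 fold change of the list was -0.24, with 9 negative and 2 positive. Among the 8 not called, Fkbp5 was at -0.08, Mt1 at -0.17, Mt2 at -0.08, Sgk1 at -0.24 and Cdkn1a at 0.31. Klf9, a zinc finger factor, had 103, 89.1 and 93.7 CPM in EPO 1, 2 and 3, against 178, 186 and 199 CPM in Vehicle 1, 2 and 3, with all EPO libraries below all Vehicle libraries (log2 fold change -0.98 with SE 0.12, adjusted p = 0.00296 in edgeR). Zbtb16, another zinc finger factor, had 4.46, 19.1 and 14.9 CPM in EPO 1, 2 and 3, against 48.9, 40.8 and 59.8 CPM in Vehicle 1, 2 and 3, again with no overlap and with EPO 1 the lowest (log2 fold change -1.96 with SE 0.47, adjusted p = 0.0231 in edgeR). Klf9 was called in all 15 alternative settings, and Zbtb16 missed the threshold without Vehicle 1, Vehicle 2 or Vehicle 3 (edgeR adjusted p between 0.0527 and 0.0685).

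Of 11 immediate early genes, which are induced quickly on stimulation, 4 were called lower, against the same background, and 0 higher in edgeR (1 higher at an unadjusted p under 0.05, 1 in DESeq2 and 0 in limma-voom). Dusp1, called lower, is also in the glucocorticoid list, so the counts of these lists are not separate. Over the 11 immediate early genes the log2 fold change was negative for 8 and positive for 3. The largest in size was positive, Junb at 1.32 (adjusted p = 0.0832 in edgeR). Junb had 454, 117 and 176 CPM in EPO 1, 2 and 3, against 98.8, 79.5 and 122 CPM in Vehicle 1, 2 and 3. Nr4a1, a nuclear receptor of this class, had 69.2, 66.3 and 84.5 CPM in EPO 1, 2 and 3, against 202, 162 and 131 CPM in Vehicle 1, 2 and 3, with all EPO libraries below all Vehicle libraries (log2 fold change -1.17 with SE 0.19, adjusted p = 0.00621 in edgeR). Fosb, a partner of JUN proteins, had 11.5, 15.5 and 18.2 CPM in EPO 1, 2 and 3, against 26.1, 33.3 and 27.2 CPM in Vehicle 1, 2 and 3, also without overlap (log2 fold change -0.94 with SE 0.19, adjusted p = 0.0146 in edgeR). Fosb missed the threshold without Vehicle 2 (edgeR adjusted p = 0.0572) and without both EPO 1 and EPO 2 (0.0945), and Nr4a1 in the second of these fits (0.0945). Within EPO, Fosb was lowest in EPO 1, where Dbp was highest, and highest in EPO 3, while Dbp was lowest in EPO 2.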
